A study of Mus musculus with 12 samples.

Results

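Aminoacyl-tRNA synthetases attach each amino acid to its tRNA, and the charged tRNAs then carry the amino acids to the ribosome. Cells keep a set of these enzymes for the cytosol and another for the mitochondria, both encoded in the nucleus, and in mammals glycyl- and lysyl-tRNA synthetase serve both compartments from 1 gene each. When uncharged tRNAs accumulate, the kinase GCN2 (gene Eif2ak4) phosphorylates the initiation factor eIF2, which raises translation of the transcription factor ATF4, and many cytosolic synthetase genes are known targets of ATF4. In heart muscle the mitochondrial enzymes serve the translation of the respiratory chain subunits encoded in mitochondrial DNA. The 36 synthetase genes described here were chosen by name, 20 for the cytosol (Gars and Kars among them) and 16 for the mitochondria, from 51912 gene IDs in the deposited table. All 36 passed the filter on low values and were tested.

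Total RNA from fresh heart ventricles of mice was sequenced in 12 libraries, 3 each of LCHADD females, WT (wild-type) females, LCHADD males and WT males. LCHADD is deficiency of long-chain 3-hydroxyacyl-CoA dehydrogenase, an activity of the mitochondrial trifunctional protein in the breakdown of long-chain fatty acids. Per the labels the mice had no treatment, and they give no age, strain or account of how the gene was altered. They do not say whether each library came from a separate animal, so p-values measure the spread between these libraries.

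The libraries held 15.6 to 23.2 M (mega) reads assigned to genes. The share of reads from mitochondrial DNA was 34.4 ± 2.70% in LCHADD and 29.3 ± 1.94% in WT (SD, n = 6). All 7 cardiomyocyte markers looked up were detected, and their summed normalised reads ran from 500682 to 879013 in LCHADD libraries and were at least 934146 in every WT library. Of these 7 markers, 6 passed as lower in the mean of both sexes, as did 3 of 5 endothelial, 5 of 5 fibroblast, 3 of 4 mural and 5 of 5 erythroid markers, where 20.6% of all tested genes did. In females 6 cardiomyocyte, 3 endothelial, 5 fibroblast, 0 mural and 5 erythroid markers passed as lower, beside 17.2% of all tested genes. In males the counts were 1, 3, 2, 2 and 5, beside 7.77%. The median log2 change of the cardiomyocyte markers was -0.66 in females and -0.26 in males. The summed macrophage and leukocyte markers ran from 1099 to 1512 normalised reads in LCHADD and from 1055 to 1444 in WT. Of these 5 markers, 0 passed in the mean of both sexes and 0 in males, where 3 had positive log2 changes, with a median of 0.07. In females all 5 were positive, with a median of 0.27. There 2 passed as higher, Adgre1 and Cd68, beside 16.7% of all tested genes. Of 5 skeletal muscle markers 2 were tested and 1 is listed at 0 in all libraries. Acta1, a sarcomeric actin also made in heart, passed as higher in the mean (log2 change 1.78) and in females (2.93), and was the 1 gene that passed in the interaction of genotype and sex (2.30), while Ckm passed as lower in females (-0.28). The sums of the 5 ran from 28384 to 33589 normalised reads in LCHADD females and from 21028 to 23010 in WT females, and from 26044 to 30373 in LCHADD males and from 25197 to 27938 in WT males. The part of these markers' changes in the synthetase values was not tested. In tissue RNA, fewer cells of a type and less RNA per cell cannot be told apart.

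Levels are given as normalised reads, the read count of a gene divided by 1 size factor per library. Changes are LCHADD minus WT on the log2(value + 1) scale, with the standard error (SE) of a limma fit of all 13865 tested genes, and genes passed where the p adjusted over all of them (Benjamini-Hochberg) was under 0.05. Every adjusted p below is limma's where no other tool is named.

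The study set LCHADD against WT ventricles in each sex. Transcripts of the cytosolic enzymes were higher in LCHADD, while most of those of the mitochondrial enzymes did not pass. In females 17 of the 20 cytosolic genes passed as higher and 0 as lower, where 16.7% of all tested genes passed as higher and 17.2% as lower. In males 13 passed as higher and 0 as lower, beside 7.71% and 7.77% of all tested genes. The 7 that did not pass in males were Dars, Farsa, Hars, Qars, Rars, Tars and Wars. With males alone in the fit Dars, Qars, Rars and Tars passed (adjusted p = 0.011, 0.049, 0.0024 and 0.00012). With females alone the calls of Dars, Hars, Rars and Tars were lost (adjusted p = 0.067, 0.13, 0.14 and 0.053). Over all genes 3342 passed with males alone, against 2146, and 3436 with females alone, against 4692. In the mean of both sexes 18 passed as higher and 0 as lower, beside 20.3% and 20.6% of all tested genes. All 20 estimates were positive in each of these comparisons, and edgeR and DESeq2 too called 0 cytosolic genes lower. The 2 cytosolic genes that did not pass in that mean were Wars and Farsa. The median log2 change of the cytosolic genes was 1.02 for females, 0.82 for males and 0.92 for the mean, against 0 for all tested genes. Of the 16 mitochondrial genes, Rars2 passed as higher in each sex and in the mean. Cars2 and Fars2 passed as lower in females and in the mean, and 0 passed as lower in males (limma, 0 at an unadjusted p under 0.05, and 0 by edgeR and DESeq2). The median log2 change of the mitochondrial genes was -0.07 for females, 0.04 for males and 0.02 for the mean. When the reads of nuclear genes set the scale, 59.6% of the genes that passed in females were higher, against 49.3% under the authors' scaling.

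**Figure D1:**
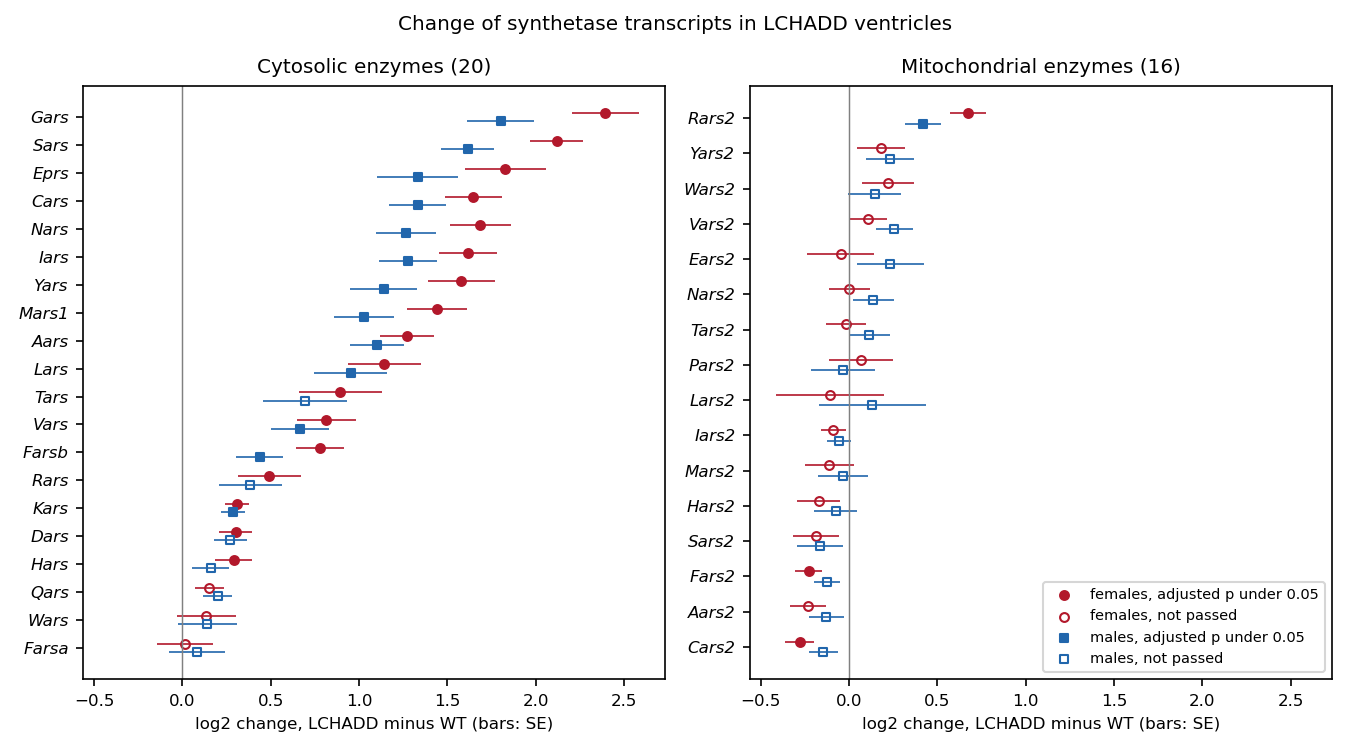
Log2 change, LCHADD minus WT, of the 20 cytosolic (left) and 16 mitochondrial (right) synthetase transcripts in females (red circles) and males (blue squares). Bars are standard errors and filled symbols passed at an adjusted p under 0.05. The cytosolic changes run from 0.01 (Farsa) to 2.39 (Gars) in females, and the mitochondrial ones from -0.28 (Cars2) to 0.67 (Rars2).

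Across all libraries, 14 of the 20 cytosolic genes had all 6 LCHADD values above all 6 WT values, as did 9.82% of all tested genes. In the same direction, 1 of the 16 mitochondrial genes (Rars2) did not overlap between the genotypes. All 6 LCHADD values lay below all 6 WT values for 2 mitochondrial genes (Cars2 and Fars2) and 0 cytosolic genes, as they did for 9.91% of all tested genes.

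Promoters were searched for TGATGNAA, the core of the motif bound by ATF4 with C/EBP proteins. Gars, with the largest change among the known ATF4 targets, was among the genes that hold it. The motif was searched on both strands in RefSeq windows from 250 bases before to 50 bases after each gene's start, on build GRCm38.p6. It stood in 3.97% of all 32851 windows, and in those of 4.51% of 27025 genes. A window was at hand for 27 of the 36 synthetase genes, and 5 of these held the motif: Aars, Gars, Iars, Tars and Yars. They made up 5 of the 8 known ATF4 targets with a window, while 0 of the 5 other cytosolic genes and 0 of the 14 mitochondrial genes with a window held it. The list of targets was drawn up with earlier results of these libraries known, so this split is no independent evidence. The targets with a window and no motif were Sars, Eprs and Mars1, with log2 changes of 1.87, 1.58 and 1.23 in the mean of both sexes. Those with the motif changed by 2.10 (Gars), 1.45 (Iars), 1.36 (Yars), 1.19 (Aars) and 0.79 (Tars), so the ranges overlapped. A match is a description of these letters and no evidence of binding. The stretches around the motif are shown for the 4 of these genes with the largest changes, as they let the letters be compared beside the levels that follow. All are on the + strand, read 5′ to 3′, and capitals mark the motif, as TGATGNAA in Yars and as its reverse complement in the others.
Gars, chr6:55037915-55038000: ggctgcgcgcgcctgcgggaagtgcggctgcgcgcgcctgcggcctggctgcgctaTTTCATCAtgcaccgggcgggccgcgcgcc
Iars, chr13:49682126-49682155: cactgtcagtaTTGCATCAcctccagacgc
Yars, chr4:129189895-129189924: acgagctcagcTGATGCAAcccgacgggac
Aars, chr8:111033674-111033793: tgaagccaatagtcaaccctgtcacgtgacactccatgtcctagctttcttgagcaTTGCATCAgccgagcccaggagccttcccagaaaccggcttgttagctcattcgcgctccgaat
Aars, chr8:111033840-111033869: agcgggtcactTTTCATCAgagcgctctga
The motif in Gars begins 30 bases before the gene's start. In Aars the motif occurs at 112 bases before the start and again 10 bases after it, and in Iars and Yars it lies 8 and 4 bases after the start.

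Gars (ENSMUSG00000029777), which encodes the glycyl enzyme of both compartments, had 5066, 6782 and 3303 normalised reads in LCHADD females 1, 2 and 3, against 942, 893 and 926 in WT females. In males it had 3741, 2495 and 3227 in LCHADD and 845, 893 and 943 in WT. The lowest LCHADD library lay far above the highest WT library in both sexes. The log2 change was 2.39 in females (SE 0.19, adjusted p = 4.7e-07) and 1.80 in males (SE 0.19, adjusted p = 1.9e-05). Averaged over the sexes it was 2.10, a 4.28-fold higher level.

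Sars (ENSMUSG00000068739), the seryl enzyme, had 3442, 4630 and 2606 normalised reads in LCHADD females, against 801, 810 and 781 in WT females. In males the values were 2987, 2229 and 2564 in LCHADD and 802, 857 and 864 in WT. Every LCHADD library was above every WT library, and the WT values lay close together. Its log2 change was 2.12 in females (SE 0.15, adjusted p = 2e-07) and 1.61 in males (SE 0.15, adjusted p = 6.6e-06).

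Eprs (ENSMUSG00000026615) encodes a bifunctional enzyme that charges tRNAs with glutamate and with proline. It had 5693, 9853 and 3999 normalised reads in LCHADD females and 1782, 1776 and 1588 in WT females. In LCHADD males it had 5531, 3543 and 4047, against 1746, 1790 and 1590 in WT males. The genotypes did not overlap, and LCHADD female 2 stood above all other libraries. The log2 change was 1.83 in females (SE 0.23, adjusted p = 2.8e-05) and 1.33 in males (SE 0.23, adjusted p = 0.0013).

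**Figure D2:**
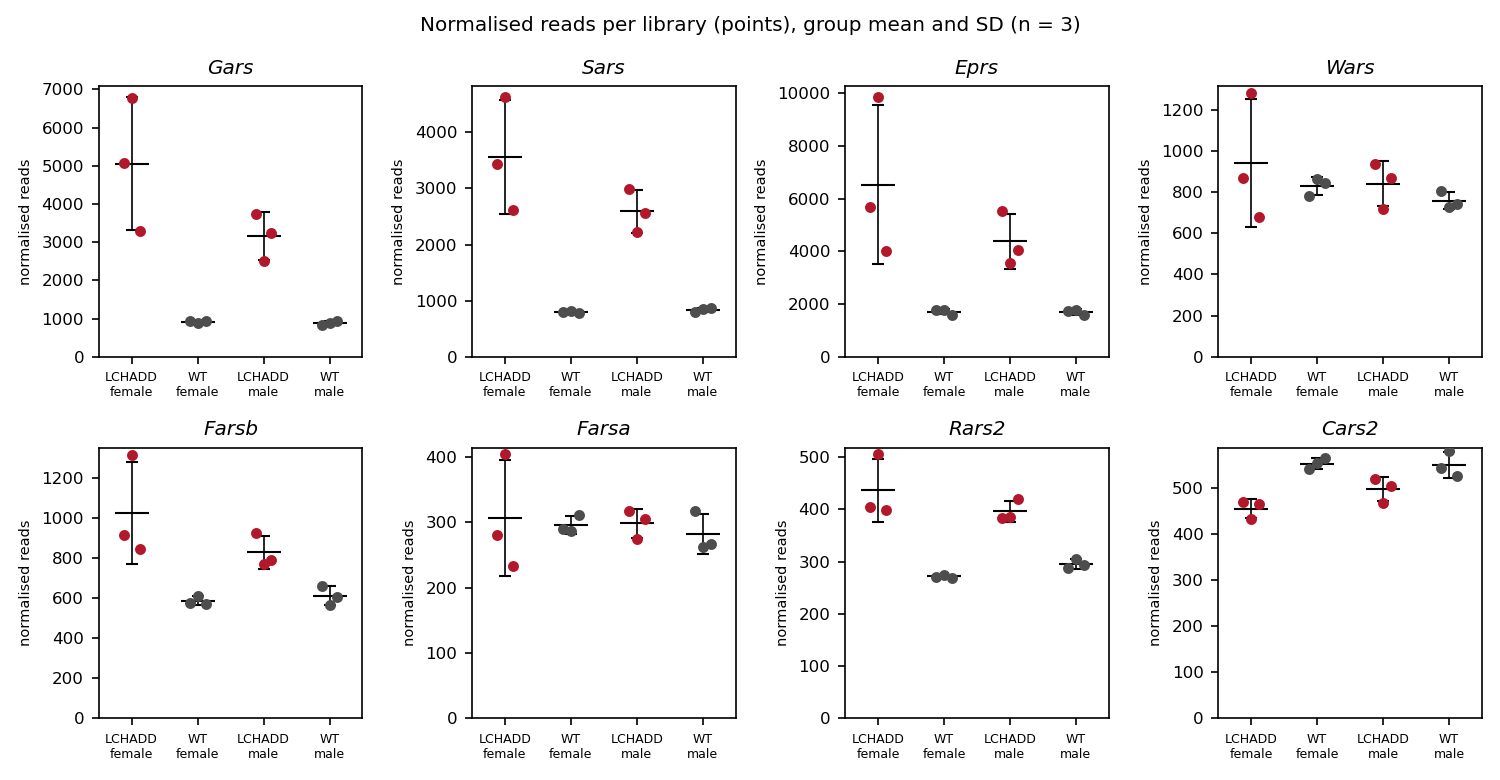
Normalised reads of 8 synthetase genes in each library (points; LCHADD red, WT grey) with the group mean and SD (n = 3), by genotype and sex on linear axes from 0. Gars, Sars and Eprs are higher in every LCHADD library than in any WT library, Wars and Farsa overlap, and Rars2 (higher) and Cars2 (lower) do not overlap between the genotypes.

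Cars (ENSMUSG00000010755), the cysteinyl enzyme, had 747, 977 and 585 normalised reads in LCHADD females, against 239, 245 and 235 in WT females. LCHADD males had 704, 490 and 596, and WT males 246, 248 and 210. All LCHADD libraries lay above all WT libraries. Averaged over the sexes, the log2 change was 1.49 (SE 0.11, adjusted p = 1.5e-07).

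Nars (ENSMUSG00000024587), the asparaginyl enzyme, had 3856, 5891 and 3003 normalised reads in LCHADD females and 1279, 1271 and 1254 in WT females. In males it had 3671, 2815 and 3133 in LCHADD, against 1381, 1380 and 1220 in WT. The genotypes did not overlap in either sex. Averaged over the sexes, its log2 change was 1.48 (SE 0.12, adjusted p = 2.7e-07).

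Iars (ENSMUSG00000037851), the isoleucyl enzyme of the multisynthetase complex, had 3259, 4617 and 2459 normalised reads in LCHADD females, against 1110, 1144 and 1006 in WT females. The values in males were 3200, 2440 and 2458 in LCHADD and 1082, 1143 and 1091 in WT. All LCHADD libraries exceeded all WT libraries. The averaged log2 change was 1.45 (SE 0.12, adjusted p = 2.4e-07).

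Yars (ENSMUSG00000028811), the tyrosyl enzyme, had 1242, 1980 and 918 normalised reads in LCHADD females and 437, 451 and 429 in WT females. In LCHADD males it had 1182, 959 and 1030, against 432, 491 and 512 in WT males. LCHADD female 3 was the lowest LCHADD library and was still above all WT libraries. The change averaged over the sexes was 1.36 on the log2 scale (SE 0.13, adjusted p = 1.7e-06).

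Mars1 (ENSMUSG00000040354), the methionyl enzyme, which also charges the initiator tRNA, had 1870, 2846 and 1435 normalised reads in LCHADD females, against 772, 718 and 687 in WT females. LCHADD males had 1638, 1361 and 1404, and WT males 721, 759 and 671. There was no overlap between the genotypes. On the log2 scale the averaged change was 1.23 (SE 0.12, adjusted p = 1.6e-06). Its exons share 68 bases with those of Ddit3 on the opposite strand, and whether reads were counted by strand is not given in the sources used here.

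Kars (ENSMUSG00000031948), the lysyl enzyme and the other gene that serves both compartments, had 2108, 2044 and 2008 normalised reads in LCHADD females and 1596, 1650 and 1725 in WT females. In males it had 1888, 1690 and 1862 in LCHADD, against 1476, 1528 and 1454 in WT. Within each sex the genotypes did not overlap, while LCHADD male 2 fell below the highest WT female. Its log2 change was 0.31 in females (SE 0.07, adjusted p = 0.0027) and 0.29 in males (SE 0.07, adjusted p = 0.011), so the genes shared by both compartments passed in each sex with changes of different size. The male call of Kars was lost without LCHADD male 1 (log2 change 0.26, adjusted p = 0.056).

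Of the other cytosolic genes, Aars (alanyl) and Lars (leucyl) changed by 1.19 (SE 0.11, adjusted p = 8.7e-07) and 1.05 (SE 0.15, adjusted p = 4.8e-05) in the mean of both sexes. Tars (threonyl), Vars (valyl) and Farsb (the beta subunit of the phenylalanyl enzyme) changed by 0.79, 0.74 and 0.61. For these 5 genes no LCHADD value overlapped a WT value. The smaller changes that passed were 0.44 for Rars (arginyl), 0.29 for Dars (aspartyl), 0.22 for Hars (histidyl) and 0.18 for Qars (glutaminyl). Dars did not overlap between the genotypes, whereas Rars, Hars and Qars did. The call of Hars in the mean was lost without LCHADD male 1 (adjusted p = 0.058) and without WT male 1 (adjusted p = 0.05). That of Qars was lost without LCHADD female 3, WT female 1, WT female 3, LCHADD male 1 or WT male 3 (adjusted p between 0.053 and 0.058). The female calls of Hars (0.29) and Rars (0.49) lay near the threshold. Both were lost in 11 of the 12 fits that left out 1 library, the exception being the fit without LCHADD female 3, with adjusted p from 0.053 to 0.2 for Hars and from 0.052 to 0.16 for Rars. Without LCHADD female 2 the female log2 change was 0.16 for Hars and 0.21 for Rars. Both calls were also lost with TMM scaling (adjusted p = 0.056 for Hars and 0.052 for Rars), with no filter (0.067 and 0.062) and with females alone in the fit (0.13 and 0.14), and that of Rars with the replicate block (0.053). The female call of Dars was lost without LCHADD female 2 (log2 change 0.21, adjusted p = 0.07), without WT female 3 (0.27, adjusted p = 0.07) and with females alone (adjusted p = 0.067). In males the call of Farsb was lost in 8 of the 12 fits that left out 1 library (adjusted p from 0.051 to 0.16), and that of Vars without LCHADD male 1 (adjusted p = 0.078) or WT male 3 (adjusted p = 0.051). Tars did not pass in males (0.69, adjusted p = 0.059), though it did with males alone in the fit (adjusted p = 0.00012). Its female call was lost with females alone (adjusted p = 0.053). Aars shares 14.3% of its exon length with Exosc6, which is listed at 0 in the table, on the same strand.

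Wars (ENSMUSG00000021266), the tryptophanyl enzyme, did not pass although it is a known ATF4 target. It had 866, 1283 and 677 normalised reads in LCHADD females, against 779, 865 and 843 in WT females, and 935, 720 and 869 in LCHADD males, against 804, 729 and 744 in WT males. LCHADD female 2 was the highest library and LCHADD female 3 the lowest. The log2 change in the mean was 0.14 (SE 0.12, adjusted p = 0.37), and it passed without LCHADD female 3 (log2 change 0.24, adjusted p = 0.045). Without LCHADD female 2 the value was 0.01 in the mean (adjusted p = 0.9) and -0.11 in females (adjusted p = 0.49).

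The subunits of the cytosolic phenylalanyl enzyme, which works as a tetramer of alpha and beta chains, differed from each other. Farsa (ENSMUSG00000003808), the alpha subunit, had 281, 405 and 233 normalised reads in LCHADD females and 290, 287 and 312 in WT females. In males it had 317, 274 and 305 in LCHADD, against 318, 263 and 267 in WT. The genotypes overlapped, and the log2 change in the mean was 0.05 (SE 0.11, adjusted p = 0.77). Farsb (ENSMUSG00000026245) ran from 773 to 1316 normalised reads in LCHADD libraries and from 567 to 661 in WT libraries, without overlap. Per kb of exon, the level of Farsb over that of Farsa was 5.33 ± 0.64 in LCHADD libraries, from 4.50 to 6.26, and 3.60 ± 0.26 in WT libraries, from 3.18 to 3.93 (SD, n = 6). The ratio did not overlap between the genotypes.

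The known ATF4 targets and the other cytosolic enzymes differed in size of change. Of the 12 listed targets, 11 passed as higher in the mean of both sexes, with a median log2 change of 1.40, and the exception was Wars. Of the 8 others, 7 passed, with a median of 0.29, and the exception was Farsa. The listed targets ran from 0.14 (Wars) to 2.10 (Gars) and the others from 0.05 (Farsa) to 0.74 (Vars), so the lists overlapped. The list of targets comes from general knowledge, and was drawn up with earlier results of these libraries known. It is therefore no independent evidence of the direction or size of its changes. Split by the multisynthetase complex or by catalytic class, the medians lay closer together. The 8 enzymes of the complex all passed as higher, with a median of 0.74, and 10 of the 12 outside it passed, with a median of 0.99. Class I enzymes passed in 8 of 9 with a median of 1.05, and class II enzymes in 9 of 10 with a median of 0.70, Eprs being counted in neither.

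**Figure D3:**
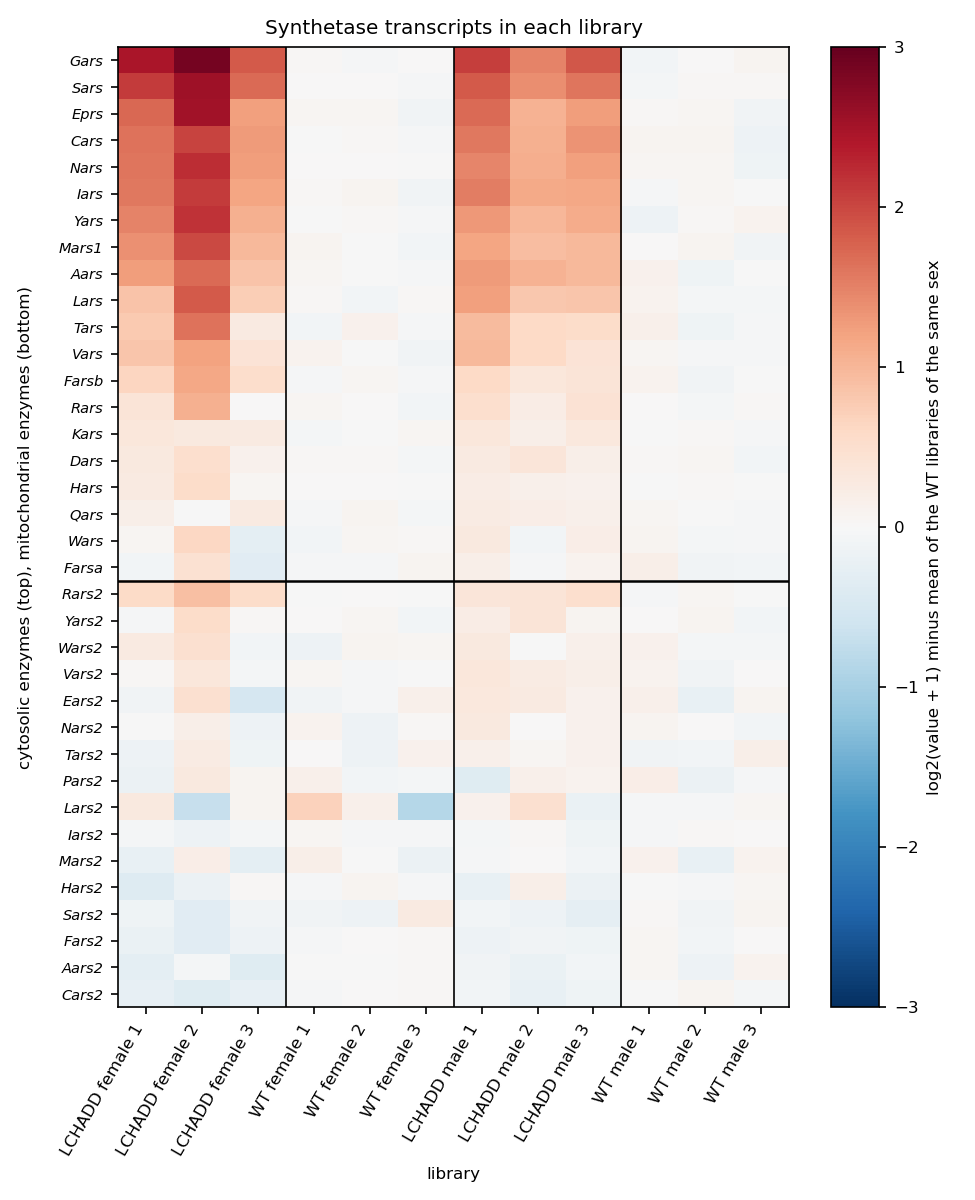
Log2(value + 1) of each synthetase transcript in each library, minus the mean of the WT libraries of the same sex (colour), with cytosolic enzymes above and mitochondrial enzymes below the line. LCHADD columns stand left of the WT columns of the same sex. The cytosolic block is mostly red in the LCHADD libraries, deepest in LCHADD female 2, and Lars2 varies among libraries of both genotypes.

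The cytosolic genes varied together among LCHADD libraries. Set against the mean of the WT libraries of the same sex, their median log2 level was 0.84, 1.67 and 0.63 in LCHADD females 1, 2 and 3, and 1.09, 0.71 and 0.68 in LCHADD males 1, 2 and 3. LCHADD female 2 held the highest value of its group for 18 of the 20 genes, and LCHADD female 3 the lowest for 19. LCHADD male 1 was the highest of its group for 19 of 20. The shares of all tested genes highest or lowest in these libraries were not computed, so these counts are not set against them. In WT libraries the same medians lay between -0.03 and 0.04. For the mitochondrial genes LCHADD female 2 held the highest value of its group for 10 of 16 and the lowest for 5. Their median log2 level was -0.11, 0.18 and -0.09 in LCHADD females 1, 2 and 3. Atf4 itself had 3675, 7586 and 3588 normalised reads in LCHADD females, against 1243, 1255 and 1215 in WT females, and 3001, 2669 and 2605 in LCHADD males, against 1192, 1305 and 1290 in WT males. Its highest library, LCHADD female 2, was also that of the cytosolic genes, and had the lowest summed cardiomyocyte markers, 500682 normalised reads. The part of cell composition in this was not tested. Without LCHADD female 2, 15 cytosolic genes passed as higher in females with a median log2 change of 0.71, and 18 passed in the mean of both sexes with a median of 0.76.

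The sexes were compared by the interaction of genotype and sex, the female change minus the male change. By limma 0 of the 36 genes passed, beside 0.00721% of all tested genes (1 gene), and 2 had an unadjusted p under 0.05. By edgeR 0 of the 36 passed, as did 0 of the 14 for which DESeq2 gave an adjusted p. The estimate was positive for 17 of the 20 cytosolic genes and 3 of the 16 mitochondrial genes. The genes with an unadjusted p under 0.05 were Gars (0.59, SE 0.27, adjusted p = 0.49) and Sars (0.50, SE 0.22, adjusted p = 0.46). Both passed without LCHADD female 3, with estimates of 0.87 (adjusted p = 0.031) and 0.71 (adjusted p = 0.042). In the other direction, the lowest female changes with 1 library left out were 2.15 for Gars and 1.91 for Sars. Their male changes over all libraries were 1.80 and 1.61. Without LCHADD female 2 the median female change of the cytosolic genes was 0.71, below the male median of 0.82. Between WT females and WT males 0 of the 36 genes passed by limma, edgeR or DESeq2, beside 0.245% of all tested genes. Kars, at a female minus male difference of 0.16 (SE 0.07), had an unadjusted p under 0.05.

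Among mitochondrial enzymes, Rars2 (ENSMUSG00000028292), which charges the mitochondrial arginine tRNA, passed as higher. It had 405, 507 and 399 normalised reads in LCHADD females, against 271, 274 and 270 in WT females. In males it had 383, 386 and 420 in LCHADD and 288, 306 and 294 in WT. The genotypes did not overlap in either sex. Its log2 change was 0.67 in females (SE 0.10, adjusted p = 0.00016), 0.42 in males (SE 0.10, adjusted p = 0.012) and 0.55 averaged over the sexes (SE 0.07, adjusted p = 3e-05). The male call was lost without LCHADD male 3 (log2 change 0.38, adjusted p = 0.052) and without WT male 1 (log2 change 0.40, adjusted p = 0.05).

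Cars2 (ENSMUSG00000056228), the mitochondrial cysteinyl enzyme, had 468, 432 and 464 normalised reads in LCHADD females and 540, 552 and 563 in WT females. LCHADD males had 518, 467 and 503, against 542, 579 and 526 in WT males. Every LCHADD value lay below every WT value, by a small margin in males. The averaged log2 change was -0.21 (SE 0.06, adjusted p = 0.0086). In females alone it was -0.28 (SE 0.08, adjusted p = 0.016), and the call was lost without WT female 3 (-0.26, adjusted p = 0.05) and with nuclear-read scaling (-0.21, adjusted p = 0.063).

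Fars2 (ENSMUSG00000021420), the mitochondrial phenylalanyl enzyme, which works as a single chain, had 963, 871 and 992 normalised reads in LCHADD females, against 1068, 1118 and 1120 in WT females. In males it had 1019, 1065 and 1047 in LCHADD and 1189, 1074 and 1155 in WT. The genotypes did not overlap, with LCHADD male 2 and WT male 2 close to each other. Its averaged log2 change was -0.18 (SE 0.05, adjusted p = 0.014). In females it was -0.23 (SE 0.07, adjusted p = 0.028), and the call was lost without LCHADD female 2 (-0.17, adjusted p = 0.092), WT female 2 (-0.22, adjusted p = 0.083) or WT female 3 (-0.22, adjusted p = 0.076). It was also lost with nuclear-read scaling (-0.16, adjusted p = 0.1) and with females alone in the fit (adjusted p = 0.081).

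The other 13 mitochondrial genes did not pass in the mean of both sexes. Their log2 changes were 0.21 for Yars2 (tyrosyl), 0.18 for Wars2 (tryptophanyl) and Vars2 (valyl), 0.09 for Ears2 (glutamyl), 0.07 for Nars2 (asparaginyl), 0.05 for Tars2 (threonyl), 0.02 for Pars2 (prolyl) and 0.01 for Lars2 (leucyl). The values were -0.07 for Iars2 (isoleucyl) and Mars2 (methionyl), -0.12 for Hars2 (histidyl) and -0.18 for Sars2 (seryl) and Aars2 (alanyl). Nearest to the threshold were Aars2 (adjusted p = 0.055) and Vars2 (adjusted p = 0.06). Aars2 passed as lower by edgeR (adjusted p = 0.049), with a filter at 50 (0.048), with TMM scaling (0.047), with upper-quartile scaling (0.036) and with array weights (0.004). It also passed without LCHADD female 2 (-0.22, adjusted p = 0.0099), without WT male 2 (-0.22, adjusted p = 0.027) and without both WT female 3 and LCHADD female 2 (-0.22, adjusted p = 0.021). Vars2 and Wars2 passed as higher without LCHADD female 3 (0.22, adjusted p = 0.022, and 0.26, adjusted p = 0.046), and Yars2 without LCHADD female 1 (0.26, adjusted p = 0.047). Iars2 shares 22.9% of its exon length with Rab3gap2 on the opposite strand, and Hars and Hars2 share 195 bases with each other on opposite strands.

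Levels per kb divide by the merged length of all annotated exons of a gene, so comparisons between genes depend on the annotation. Lars2, the mitochondrial leucyl enzyme, had the highest level of the 36 genes per kb of exon, 1649 ± 420 normalised reads per kb in LCHADD and 1664 ± 561 in WT (SD, n = 6). The next in LCHADD was Gars, with 1315 ± 501 in LCHADD and 291 ± 12.1 in WT. Kars, with 433 ± 34.0 in LCHADD and 352 ± 23.6 in WT, was the next in WT and number 7 in LCHADD. The library values of Lars2 spread widely in both genotypes, from 11128 to 23969 normalised reads in LCHADD and from 9975 to 29162 in WT. They went with CT010467.1, a gene annotated as ribosomal RNA, which ran from 44957 to 110171 normalised reads in LCHADD and from 37212 to 140246 in WT. Lars2 stood at 21.8 to 26.6% of its level in LCHADD libraries and 20.8 to 26.8% in WT libraries. How reads of ribosomal RNA bear on the value of Lars2 was not tested. The median gene level was 293 normalised reads per kb in LCHADD and 185 in WT for cytosolic genes, and 89.4 in LCHADD and 87.4 in WT for mitochondrial genes, Lars2 counted.

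Cytosolic and mitochondrial enzymes for the same amino acid form 17 pairs, with Eprs paired with both Ears2 and Pars2, and Fars2 with both cytosolic subunits. The cytosolic change was the larger in 15 pairs. The ratio of cytosolic to mitochondrial level per kb was higher in all 6 LCHADD libraries than in any WT library for 11 pairs, and overlapped for 6. The share of such ratios among pairs of other genes was not computed. The ratios also hold the cytosolic values already counted above, so they are no separate evidence. Sars over Sars2 stood at 10.4 ± 3.79 in LCHADD and 2.43 ± 0.297 in WT (SD, n = 6), the pair with the largest difference of log2 changes, 2.04. Nars over Nars2 stood at 20.9 ± 5.08 in LCHADD and 7.75 ± 0.591 in WT. The exceptions were arginine, where Rars changed by 0.44 and Rars2 by 0.55, and tryptophan, where Wars had a value of 0.14 and Wars2 of 0.18, neither of which passed. The ratio of Rars to Rars2 was 1.87 ± 0.312 in LCHADD and 2.00 ± 0.136 in WT, and overlapped.

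**Figure D4:**
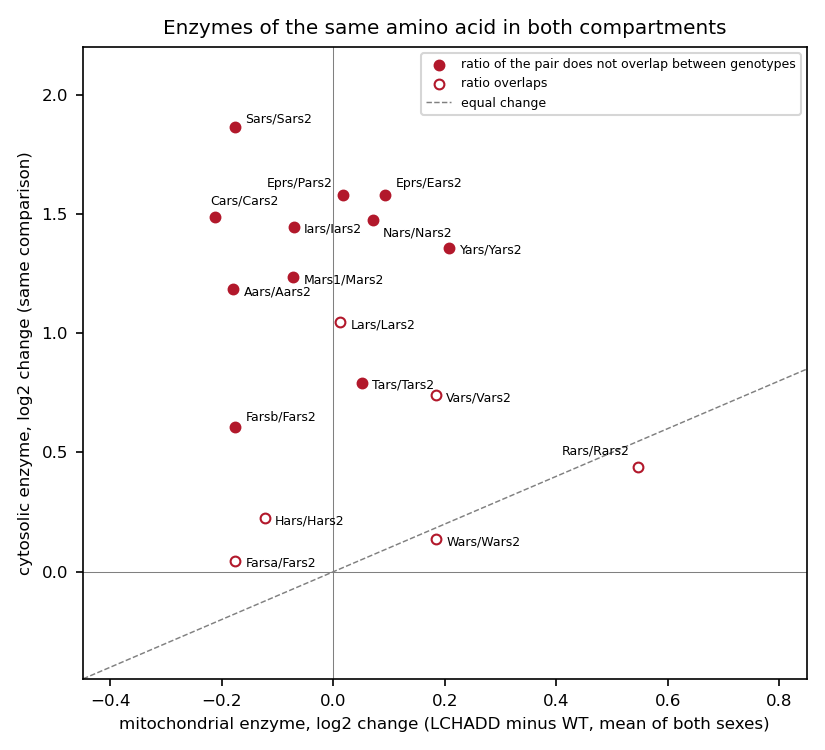
Log2 change (LCHADD minus WT, mean of both sexes) of the mitochondrial enzyme (horizontal axis) and the cytosolic enzyme (vertical axis) for the same amino acid. Filled points are the 11 pairs whose ratio did not overlap between genotypes, and the dashed line marks equal change. Of the 17 pairs, 15 lie above the line, and arginine and tryptophan lie below it.

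Genes that handle tRNA beside the synthetases were taken from lists drawn up with earlier results of these libraries known. Their counts in the mean of both sexes stand beside 20.3% of all tested genes that passed as higher and 20.6% as lower. The scaffolds of the multisynthetase complex passed as higher in 3 of 3 in the mean of both sexes. In females 3 passed, and in males 1 did, Aimp1, while Eef1e1 (adjusted p = 0.057) and Aimp2 (adjusted p = 0.39) did not. Eef1e1, known also as AIMP3, had 310 ± 120 normalised reads in LCHADD and 168 ± 19.7 in WT (SD, n = 6; log2 change 0.82, adjusted p = 0.00038). Aimp1 changed by 0.40 and Aimp2 by 0.32, and the values of Aimp2 overlapped between the genotypes.

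Of 14 genes for tRNA processing and export, 5 passed as higher and 0 as lower in the mean, beside the 20.3% and 20.6% of all tested genes, with a median log2 change of 0.23. Xpot, which encodes the exportin that carries tRNAs out of the nucleus, had 2082 ± 930 normalised reads in LCHADD, from 1457 to 3927, and 728 ± 17.0 in WT, from 701 to 747. Its genotypes did not overlap, and its log2 change was 1.42 (SE 0.17, adjusted p = 9.5e-06). Tsen54, a subunit of the endonuclease that splices tRNAs, changed by 0.61. The most abundant genes of this list that did not pass were Hsd17b10, a subunit of mitochondrial RNase P (0.10, adjusted p = 0.1), and Tsen34, another subunit of the splicing endonuclease (-0.17, adjusted p = 0.075). Of 15 tested genes for tRNA modification in the cytosol, 8 passed as higher, with a median of 0.26 over all 15. Mettl1 and Wdr4, which together methylate guanosine in tRNA, changed by 0.95 and 0.60, and Trmt61a, the catalytic subunit of an adenosine methyltransferase, by 0.89. Dus1l, a dihydrouridine synthase, had a value of 0.10 (adjusted p = 0.36).

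Of 12 genes for modification of mitochondrial tRNAs, 2 passed as higher, Pus1 (pseudouridine synthase, 0.57) and Cdk5rap1 (0.35), and 1 as lower, counts near the 20.3% and 20.6% of all tested genes or below them. That was Osgepl1, which makes the threonylcarbamoyl mark of mitochondrial tRNAs, with 372 ± 36.9 normalised reads in LCHADD and 549 ± 60.7 in WT (SD, n = 6; log2 change -0.56, adjusted p = 0.00011). The most abundant that did not pass were Trmt5, a guanosine methyltransferase (0.12, adjusted p = 0.4), and Mto1, which modifies the wobble uridine (-0.01, adjusted p = 0.92). Of 4 genes for the amidation of glutamate on the mitochondrial glutamine tRNA and for formylation of the initiator, 1 passed as higher in the mean. That count lay near the 20.3% of all tested genes. The gene was Gatb, an amidotransferase subunit (0.23, adjusted p = 0.0029). Gatb passed in females (0.37, adjusted p = 0.0016) and not in males (0.09, adjusted p = 0.45), and its interaction did not pass (adjusted p = 0.41). Qrsl1, another subunit, passed as lower in females (-0.27, adjusted p = 0.034) and not in males (0.04, adjusted p = 0.79), and the difference between the sexes did not pass (interaction, adjusted p = 0.45). Of the synthetase-like and editing proteins, 1 of 4 tested passed, Dtd1, which removes D-amino acids from tRNAs (0.29), near the 20.3% of all tested genes. Of the 22 mitochondrially encoded tRNA genes, 19 are listed at 0 in all libraries and 1, mt-Tp, was tested (log2 change 0.45).

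**Figure D5:**
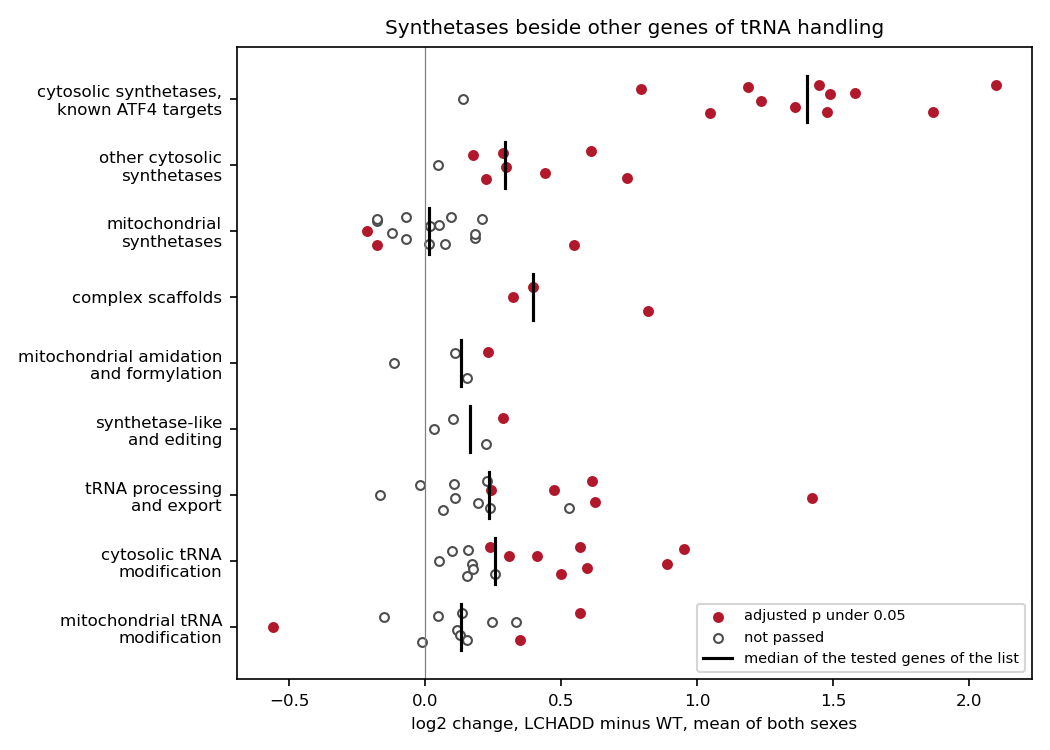
Log2 change (LCHADD minus WT, mean of both sexes) of each tested gene of 9 lists of tRNA handling. Red points passed at an adjusted p under 0.05, and black bars are list medians. The median is 1.40 for the cytosolic synthetases known as ATF4 targets, 0.29 for the other cytosolic synthetases and 0.02 for the mitochondrial ones.

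Of 10 genes listed for uncharged tRNA sensing and the ATF4 arm, 8 passed as higher in the mean of both sexes, beside 20.3% of all tested genes. The 2 that did not pass encode the sensor kinase and its activator. The sensor kinase Eif2ak4 had 135 ± 18.7 normalised reads in LCHADD and 133 ± 18.7 in WT (SD, n = 6; log2 change 0.02, adjusted p = 0.89), and its activator Gcn1 had a value of 0.04 (adjusted p = 0.73). Asns, asparagine synthetase, changed by 5.98, Trib3, a pseudokinase induced by ATF4, by 4.00, and Atf5, a related transcription factor, by 3.33. Transcript levels do not show how much of each tRNA was charged, nor the activity of the kinase.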

How the data were processed

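RNA from ventricles of 4 groups of 3 libraries was grouped by genotype and sex in the labels. The authors deposited 1 signal value per gene and library, a read count divided by a size factor. Per the submitters' processing notes, build GRCm39, bcl2fastq and DESeq2 were used, with no versions named. How reads were aligned, counted and assigned by strand is not given in the sources used here. Values divided by their step were whole within 0.01, so whole reads were recovered for the count tools. Of 51912 gene IDs, 51633 matched a symbol of GENCODE vM21 (build GRCm38), which also gave exon lengths and overlaps, so Mars1 and Gcn1 were looked up under older symbols. Promoter windows are RefSeq's, on build GRCm38.p6.

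Genes with a value of at least 10 in at least 3 of 12 libraries (13865 genes) were tested as log2(value + 1) with limma 3.58.1 (lmFit, eBayes with a trend) in R 4.3.3, with 4 group means and no replicate block. The threshold was a p, adjusted over all of them by Benjamini-Hochberg, under 0.05. The procedure was run on simulated reads with the same setting of the spread for all genes and groups. This simulation does not cover genes that spread more in LCHADD than in WT, such as Gars. Alternatives were added values of 5 and 0.5, a filter at 50 and none, TMM, upper-quartile and nuclear-read scaling, edgeR 4.0.16 (quasi-likelihood test), DESeq2 1.42.0 (Wald test), each sex alone, array quality weights, a replicate block, each library left out, WT female 3 left out with LCHADD female 2, and a further threshold of 1.5-fold.

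The members and all lists were chosen with earlier results of these data known. Per-library values are given for the 8 cytosolic and up to 6 mitochondrial genes that passed in the mean of both sexes with the largest changes, and for Kars. Wars and Farsa, which did not pass, were added after their values were seen, as were the values of Atf4. Other lists are named by the 3 largest changes per direction that passed, and by abundant genes that did not. Some genes that this rule takes are not named here. Near-identical gene copies and overlapping exons are uncertain where named. Precision is limited by 15.6 to 23.2 M reads and 3 libraries per group.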

Additional observations from a re-analysis of the deposited data

How the results depend on the processing

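The counts of mitochondrial genes, with 3 libraries per group, moved with the settings, while the cytosolic counts moved by less than 1.5 times. No result changed direction among called values. The count of mitochondrial genes lower in females (2) was 0 with nuclear-read scaling, 1 with females alone in the fit, 5 with array weights, 1 without WT female 3 and LCHADD female 2, 0 with a 1.5-fold threshold, and 0 to 2 with 1 library left out. Without WT female 3 and LCHADD female 2 that gene was Aars2 (-0.30, adjusted p = 0.046). The female calls of Cars2 (adjusted p = 0.097) and Fars2 (adjusted p = 0.17) were both lost there. The count higher in males (1) was 2 (Rars2 and Vars2) with males alone, with array weights and without those 2 libraries, 0 at 1.5-fold, and 0 to 2 with 1 library left out. In the mean of both sexes the count of higher mitochondrial genes (1) was 2 with nuclear-read scaling, 3 with array weights, 0 at 1.5-fold (Rars2 stood at 1.46-fold), and 1 to 3 with 1 library left out. The count of lower ones (2) was 4 with array weights, 0 at 1.5-fold, and 2 to 3 with 1 library left out. In the interaction, 1 cytosolic gene (Gars) passed with array weights, and 0 to 2 with 1 library left out. At 1.5-fold 13 cytosolic genes passed in females, 11 in males and, averaged, 13. With 1 library left out, the cytosolic count was 14 to 17 for females, 10 to 17 for males and 16 to 18 for the mean. Over all genes the interaction called 1 gene, against 126 by DESeq2, 749 with array weights, 2 by edgeR, TMM scaling or a filter at 50, and 9 without the 2 libraries, and 0 to 186 with 1 library left out. The sexes within WT differed in 34 genes, against 87 by DESeq2, 133 with array weights, 73 without the 2 libraries, and 17 to 105 with 1 library left out. In males 2146 genes passed, against 3342 with males alone, 3601 with array weights, 3317 without the 2 libraries, and 1317 to 3293 with 1 library left out, and a 1.5-fold threshold left 1087 in males, 2461 of 4692 in females and 2033 of 5661 averaged. The cause of these shifts was not tested. Replicate numbers did not pair the libraries (correlations of same-numbered libraries from -0.11 to 0.05 over 18 pairs, 4 of 12 libraries closest to their own number). With the replicate block, 18 cytosolic genes, 1 higher and 2 lower mitochondrial genes passed in the mean.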
